A study of Mus musculus with 24 samples.

Results

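The 10 genes described here encode the class I antigen presentation pathway of the mouse. They are H2-K1, H2-D1, H2-T23, B2m, Tap1, Tap2, Tapbp, Psmb8, Psmb9 and Nlrc5. They were chosen by gene symbol, with earlier results of these data known. All 10 were found among the 56691 genes of the deposited table of each cell type. RNA-seq was performed on the mouse macrophage line RAW264.7, derived from BALB/c mice, and on bone marrow-derived macrophages (BMDMs) from young adult male C57BL/6 mice. Both were wild type (Olfml3+/+) or labelled Olfml3 knockout (Olfml3-/-), and received either PBS or 100 ng/mL of the bacterial cell wall product lipopolysaccharide (LPS) for 4 h. There were 8 groups of 3 libraries and 24 libraries in all. The knockout mice were made with CRISPR-Cas9 and were not limited to a cell type. The knockout RAW264.7 cells came from single-cell clones made with lentiviral guide RNAs, so the genotype and the clone cannot be told apart there. The study calls the 3 libraries of a group biological replicates. No source used here says whether they came from separate mice or cultures, so p-values measure only the spread between these libraries, which may be technical.

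Class I molecules show peptides from inside the cell to CD8 T cells and to NK cells. The immunoproteasome cuts cytosolic proteins into peptides, the TAP transporter carries these into the endoplasmic reticulum, and tapasin holds the empty class I molecule at the transporter until a peptide binds. A class I molecule is a heavy chain paired with the light chain beta-2-microglobulin. Macrophages make the pathway at rest, and interferons and bacterial products raise it through factors such as NLRC5, IRF1 and NF-kappaB.

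The promoters of these genes are shown because the members, chosen by symbol, were examined as a set. RefSeq promoter windows of build GRCm38.p6 were given for 8 of the 10 genes, and Tap2 and Nlrc5 had no entry. The 250 bases before the annotated start were searched on both strands for 5 motifs, picked after the sequences had been seen. These were AANNGAAA, bound by interferon regulatory factors, TTCNNNGAA, a palindrome found in interferon-responsive promoters, the NF-kappaB consensus, TGACG, the core of the X2 box, and CCAAT, in either direction the core of the Y box. No match overlapped a match of another motif. Matches are in capitals below, and each sequence reads 5′ to 3′ on the strand of the gene.
H2-K1, minus strand, chr17:34000348-34000597: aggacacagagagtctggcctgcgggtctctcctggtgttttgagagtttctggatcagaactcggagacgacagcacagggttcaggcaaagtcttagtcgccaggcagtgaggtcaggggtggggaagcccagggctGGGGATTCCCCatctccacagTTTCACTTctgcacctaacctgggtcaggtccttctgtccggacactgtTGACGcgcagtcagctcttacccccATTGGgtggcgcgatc
H2-D1, plus strand, chr17:35262844-35263093: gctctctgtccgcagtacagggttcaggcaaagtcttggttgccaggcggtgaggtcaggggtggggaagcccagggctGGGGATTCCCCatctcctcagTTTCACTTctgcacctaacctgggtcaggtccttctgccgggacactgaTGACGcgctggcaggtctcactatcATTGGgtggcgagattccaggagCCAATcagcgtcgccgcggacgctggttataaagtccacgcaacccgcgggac
B2m, plus strand, chr2:122147437-122147686: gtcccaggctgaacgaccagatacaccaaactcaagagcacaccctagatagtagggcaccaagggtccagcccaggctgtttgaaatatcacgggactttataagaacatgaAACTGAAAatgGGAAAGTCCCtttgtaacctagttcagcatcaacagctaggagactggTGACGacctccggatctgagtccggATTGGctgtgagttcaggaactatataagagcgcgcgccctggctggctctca
Tap1, plus strand, chr17:34187306-34187555: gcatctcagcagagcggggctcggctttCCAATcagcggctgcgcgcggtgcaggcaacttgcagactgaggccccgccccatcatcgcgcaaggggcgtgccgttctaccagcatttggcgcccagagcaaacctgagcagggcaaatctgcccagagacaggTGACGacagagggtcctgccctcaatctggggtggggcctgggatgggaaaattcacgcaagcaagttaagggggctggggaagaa
The windows of H2-K1, H2-D1 and B2m each held the NF-kappaB consensus, AANNGAAA, TGACG and CCAAT, with TGACG and CCAAT nearest the start. AANNGAAA, the NF-kappaB consensus, TGACG and CCAAT were present in 21.3%, 7.25%, 17.8% and 33.8% of all 32851 windows of 250 bases. The Tap1 window held TGACG and CCAAT and shared 225 bases with the window of Psmb9, which lies on the opposite strand. The Psmb8 window held TTCNNNGAA, found in 7.02% of all windows. H2-T23 had 2 matches to AANNGAAA and 1 to CCAAT, and Tapbp had 2 matches to CCAAT. A match is a stretch of letters and not a measured binding site, and the reference is the C57BL/6 genome.

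Libraries held 11638273 to 16478616 counts in RAW264.7 cells and 17121240 to 22873094 in BMDMs. Every member was counted in every library, from 72 counts for Psmb9 in RAW264.7 to 84606 for B2m in BMDMs. Olfml3, the targeted gene, had 243 counts in wild-type BMDMs with PBS and 6 in knockout BMDMs, summed over the 3 libraries of a group, and 102 and 1 with LPS. In RAW264.7 cells its level went against the label, at 0.19, 0.15 and 0.15 FPKM (fragments per kilobase of exon, scaled to the library total) in wild type and 0.65, 1.01 and 1.19 in the libraries labelled knockout with PBS. With LPS these were 0.13, 0.13 and 0.29 against 18.9, 18.8 and 18.3. Those libraries are called labelled knockout throughout. Replicate 1 of the labelled knockout RAW264.7 cells with PBS stood apart from replicates 2 and 3 for most members, and for the PBS comparison of genotypes and the LPS response of those cells, counts are given with and without it. Shares of all genes tested are from all 12 libraries of a cell type and are not given for counts without it. Macrophage markers were detected in every group, 7 of 7 in BMDMs and 6 of 7 in RAW264.7 cells, where Mertk was at 0. Their summed level was 1304 to 1337 FPKM in wild-type and 885.4 to 1012 in labelled knockout RAW264.7 cells with PBS, and 1708 to 1762 and 815.8 to 845.2 with LPS. In BMDMs it was 2733 to 2816 and 2445 to 2488 with PBS, and 2465 to 2552 and 2200 to 2236 with LPS. The sum joined unlike markers in RAW264.7 cells. With PBS, the labelled knockout had higher means of Csf1r and Fcgr1 and lower means of Cd14, Cd68, Itgam and Adgre1. Cd14 was at 445.1 and 107.2 FPKM and Csf1r at 263.1 and 339.6 in wild type and labelled knockout. With LPS all 6 detected markers had lower means in the labelled knockout. In wild type with LPS, Cd14 was at 1135 and Csf1r at 100.2 FPKM. Of 6 T cell markers, Cd3d, Cd3e, Cd3g, Cd8a and Trac were at 0 in all BMDM groups, Cd4 was at 3.3 to 8.58 FPKM, and the 4 B cell, 5 neutrophil and 4 fibroblast markers summed to at most 1.73, 7.99 and 1.43 FPKM in a BMDM library. In RAW264.7 cells, the T cell, B cell, neutrophil and fibroblast lists summed to at most 0.07, 0.52, 0.2 and 0.28 FPKM.

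B2m was the most abundant member in both cell types and Nlrc5 or Psmb9 the least abundant. In wild-type BMDMs with PBS, mean levels ran from 4.96 FPKM for Nlrc5 and 8.29 for Psmb9 to 301.1 for H2-K1, 821.9 for H2-D1 and 3018 for B2m. In wild-type RAW264.7 cells they ran from 2.19 for Nlrc5 to 145.5 for H2-D1 and 646.6 for B2m, and H2-K1 was at 11.3. The tables were normalized separately and RAW264.7 cells carry another haplotype of the polymorphic heavy chains than the reference, so no test was made between cell types. Reads shared between near-identical heavy chain genes also leave H2-K1, H2-D1 and H2-T23 uncertain. In these bulk libraries fewer cells of a type and less RNA per cell cannot be told apart.

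**Figure D1:**
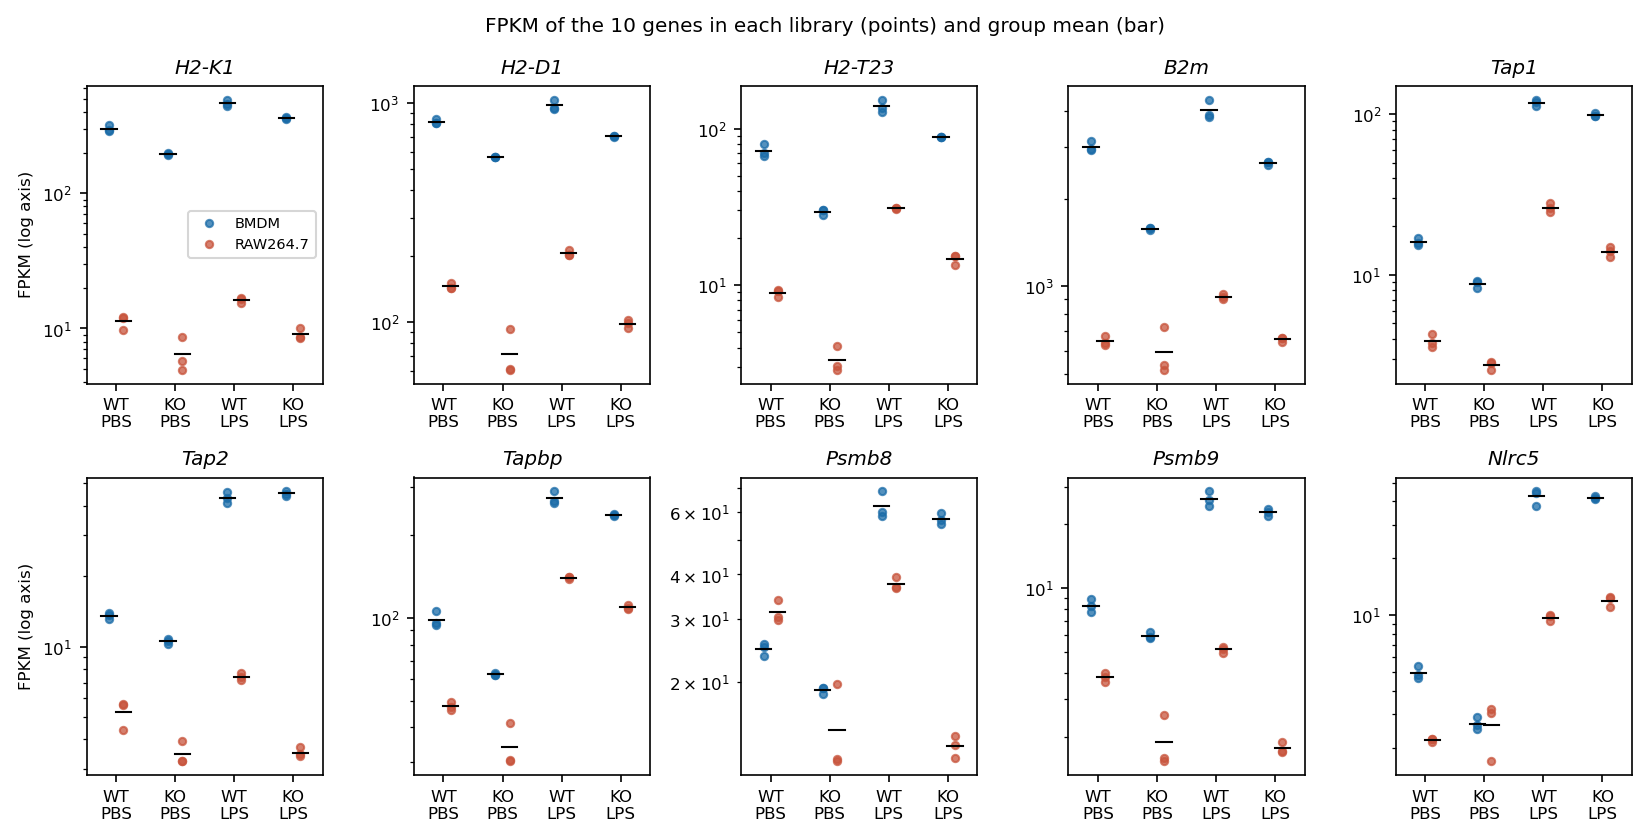
FPKM (log axis) of each of the 10 genes in each library, by group, with BMDMs in blue and RAW264.7 cells in red; points are libraries, bars are group means, and KO in RAW264.7 stands for the libraries labelled knockout. For H2-T23, the 3 knockout BMDM libraries with PBS lie below the 3 wild-type ones, at 28.01 to 30.27 FPKM against 67.26 to 79.54.

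In resting BMDMs, 6 of the 10 class I pathway genes were called lower in the knockout. These 6 fell by at least 1.5-fold with an adjusted p under 0.05, and no member rose. They were H2-K1, H2-T23, B2m, Tap1, Tapbp and Nlrc5. By the same rule 0.916% of the 26973 genes tested were lower and 0.901% higher. Genes near 0 FPKM are among those tested in each cell type. A mean of at least 1 FPKM, which every member had, was reached by 10555 genes in BMDMs and 11336 in RAW264.7 cells. Shares over those genes alone are not given. The median log2 fold change of the members was −0.64, against 0.01 for all genes tested.

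Nlrc5 encodes the transactivator of class I genes. It was at 4.85, 5.39 and 4.64 FPKM in wild-type BMDMs with PBS and at 2.64, 2.89 and 2.51 in knockout BMDMs. The groups were apart, and the log2 fold change was −0.86 ± 0.08 (SE, adjusted p = 0.000349, limma with Benjamini-Hochberg adjustment).

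Of the 3 heavy chains among the members, H2-T23 fell most. It encodes Qa-1, a nonclassical class I molecule read by NK cell receptors. H2-T23 was at 67.3, 79.5 and 70.3 FPKM in wild type and at 30.3, 30.2 and 28.0 in the knockout. The highest knockout library lay far below the lowest wild-type one, with a log2 fold change of −1.29 ± 0.08 (SE, adjusted p = 1.48e-05, limma). H2-K1, a classical heavy chain, was at 291.9, 318.2 and 293.3 FPKM against 197.9, 194.3 and 190.9. Its log2 fold change was −0.63 ± 0.06 (SE, adjusted p = 0.000157, limma). H2-D1, the other classical heavy chain, was at 821.9 against 566.8 FPKM, and its fold change of −0.54 on the log2 scale was under the fold threshold (adjusted p = 0.00019, limma).

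B2m encodes the light chain shared by all these molecules. It was at 2929, 3158 and 2967 FPKM in wild-type BMDMs and at 1586, 1584 and 1560 in the knockout. The groups did not overlap, and the log2 fold change was −0.94 ± 0.06 (SE, adjusted p = 1.54e-05, limma).

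Tap1 and Tap2 form the peptide transporter. Tap1 was at 15.75, 16.95 and 15.39 FPKM against 9.20, 8.97 and 8.29, and fell by 0.85 on the log2 scale (SE 0.06, adjusted p = 3.47e-05, limma). Tap2 was at 13.52 against 10.54 FPKM, with a log2 fold change of −0.36 that did not reach the fold threshold (adjusted p = 0.00483, limma). Tapbp, which encodes tapasin, was at 94.0, 105.8 and 95.8 FPKM against 62.8, 62.1 and 62.2, with no overlap, and fell by 0.66 on the log2 scale (SE 0.06, adjusted p = 0.000173, limma).

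Psmb8 and Psmb9 encode catalytic subunits of the immunoproteasome. Psmb8 was at 24.8 ± 0.95 FPKM in wild type and 19.0 ± 0.38 in the knockout (SD, n = 3), and Psmb9 at 8.29 ± 0.58 and 5.99 ± 0.20. Their log2 fold changes of −0.38 and −0.46 had adjusted p of 0.0117 and 0.00744 (limma) and were under the fold threshold. In BMDMs with PBS, all 10 genes were therefore lower with an adjusted p under 0.05, and 4 of them by less than 1.5-fold. The share of all genes that were lower by adjusted p alone is not given, so the count of 10 has no baseline.

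With LPS fewer members were called between the genotypes of BMDMs. H2-T23 and B2m were called lower in the knockout and no member was called higher, while 1.53% of all genes tested were lower and 3.23% higher. The median log2 fold change of the members was −0.23, against 0.04 for all genes tested. H2-T23 was at 153.1, 128.0 and 134.3 FPKM in wild type and 88.4, 88.8 and 88.2 in the knockout, with no overlap. Its log2 fold change was −0.64 ± 0.08 (SE, adjusted p = 0.000613, limma). B2m was at 4379, 3869 and 3819 FPKM against 2673, 2666 and 2598, again apart, with a log2 fold change of −0.60 ± 0.06 (SE, adjusted p = 0.00016, limma). Wild-type replicate 1 was the highest library for both genes. Without it neither gene reached the fold threshold, at −0.57 and −0.54 on the log2 scale, and the count of members called fell to 0.

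The other members of BMDMs with LPS were between −0.46 for H2-D1 and 0.06 for Tap2 on the log2 scale. H2-K1, H2-D1, Tap1 and Tapbp had adjusted p under 0.05 below the fold threshold. Nlrc5 was at 37.9, 44.0 and 45.3 FPKM in wild type and 41.6, 40.8 and 42.8 in the knockout. The knockout libraries lay within the wild-type range, and the 95% interval of the log2 fold change ran from −0.21 to 0.17. In edgeR the log2 fold change of Nlrc5 was −0.17 (adjusted p = 0.00917), under the fold threshold. The sign for Tap2 depended on the scaling, at 0.06 in the FPKM scale and −0.09 in edgeR, which scales by trimmed means. H2-D1 was called lower in edgeR, at −0.61 (adjusted p = 6.83e-15).

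In RAW264.7 cells with PBS, H2-K1, H2-D1, H2-T23, Psmb8 and Psmb9 fell in the libraries labelled knockout. These 5 members were called lower and none higher, against 3.77% of the 26740 genes tested called lower and 4.79% called higher. The median log2 fold change of the members was −0.71, against 0.02 for all genes tested. H2-D1 was at 151.0, 142.3 and 143.1 FPKM in wild type and 93.2, 61.2 and 60.4 in the labelled knockout. The labelled knockout libraries were all lower, replicate 1 least so, and the log2 fold change was −1.05 ± 0.15 (SE, adjusted p = 0.00191, limma). H2-T23 was at 9.18, 9.31 and 8.43 FPKM against 4.10, 3.05 and 2.88, a log2 fold change of −1.41 ± 0.13 (SE, adjusted p = 9.82e-05, limma). H2-K1 was at 11.98, 9.78 and 12.14 FPKM against 8.72, 4.93 and 5.78, with the groups apart and a log2 fold change of −0.83 ± 0.19 (SE, adjusted p = 0.023, limma).

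Psmb8 was at 34.0, 29.8 and 30.4 FPKM in wild-type RAW264.7 cells with PBS and at 19.78, 12.16 and 11.99 in the labelled knockout. Psmb9 was at 3.97, 3.62 and 3.82 against 2.52, 1.59 and 1.53. Both were apart, with log2 fold changes of −1.13 ± 0.17 and −1.01 ± 0.16 (SE, adjusted p = 0.00303 and 0.00361, limma). Tap1, Tap2 and Tapbp were between −0.48 and −0.58 on the log2 scale, with adjusted p under 0.05 and below the fold threshold. B2m was at 671.5, 639.5 and 628.9 FPKM against 725.7, 537.0 and 514.8. Its groups overlapped, and the log2 fold change was −0.14 ± 0.12 (SE, adjusted p = 0.472, limma). Without replicate 1 of the labelled knockout, 7 members were called lower, Tap2 and Tapbp being the added ones. The share of all genes called in that fit is not given. With these 6 libraries fitted alone, only H2-T23 was called, and H2-D1 had an adjusted p of 0.0554.

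With LPS, 7 members were called lower in the labelled knockout RAW264.7 cells, Tap1 and Tap2 joining the 5 above, and none higher. The shares of all genes tested were 7.6% lower and 9.73% higher. The median log2 fold change of the members was −0.98, against 0 for all genes tested. Psmb8 was at 37.0, 39.3 and 36.6 FPKM in wild type and 13.3, 12.3 and 14.2 in the labelled knockout, and Psmb9 at 5.19, 4.98 and 5.30 against 1.69, 1.89 and 1.72. Neither gene had overlapping groups, and the log2 fold changes were −1.50 ± 0.17 and −1.49 ± 0.16 (SE, adjusted p = 0.000383 and 0.000237, limma). Tap2 was at 7.67, 7.41 and 7.19 FPKM against 3.45, 3.71 and 3.39, and Tap1 at 26.1, 28.1 and 24.5 against 14, 14.88 and 13. The transporter genes fell by 1.06 and 0.91 on the log2 scale (adjusted p = 0.0003 and 0.000257, limma).

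All 3 heavy chains were called lower in labelled knockout RAW264.7 cells with LPS. H2-D1 was at 203.2, 214.0 and 202.6 FPKM against 102.1, 93.6 and 99.2, with a log2 fold change of −1.07 ± 0.15 (SE, adjusted p = 0.00114, limma). H2-T23 had −1.07 ± 0.13 and H2-K1 −0.83 ± 0.19 (SE, adjusted p = 0.000404 and 0.0121, limma). B2m was at 918.6 against 657.2 FPKM, with no overlap and a log2 fold change of −0.48 that was under the fold threshold (adjusted p = 0.0174, limma). Tapbp had −0.35 (adjusted p = 0.0544, limma), without overlap between the groups. Its adjusted p was 0.00503 with the 2 LPS groups fitted alone (limma) and 0.00967 in edgeR, under the fold threshold in each.

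Nlrc5 was not called in the labelled knockout RAW264.7 cells. It was at 2.15, 2.21 and 2.21 FPKM in wild type with PBS and at 1.69, 3.05 and 3.18 in the labelled knockout, where replicate 1 was below and replicates 2 and 3 above every wild-type library. With LPS it was at 9.85, 9.27 and 9.99 against 11.1, 12.3 and 12.5. The labelled knockout libraries were all higher with LPS, but the log2 fold change of 0.30 ± 0.20 did not pass (SE, adjusted p = 0.333, limma). With the 2 LPS groups fitted alone the adjusted p was 0.0328 (limma), with the change under the fold threshold, and in edgeR it was 0.177. With PBS the log2 fold change was 0.21, with a 95% interval from −0.24 to 0.65, and without replicate 1 of the labelled knockout it was 0.49 (adjusted p = 0.0006, limma), under the fold threshold.

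**Figure D2:**
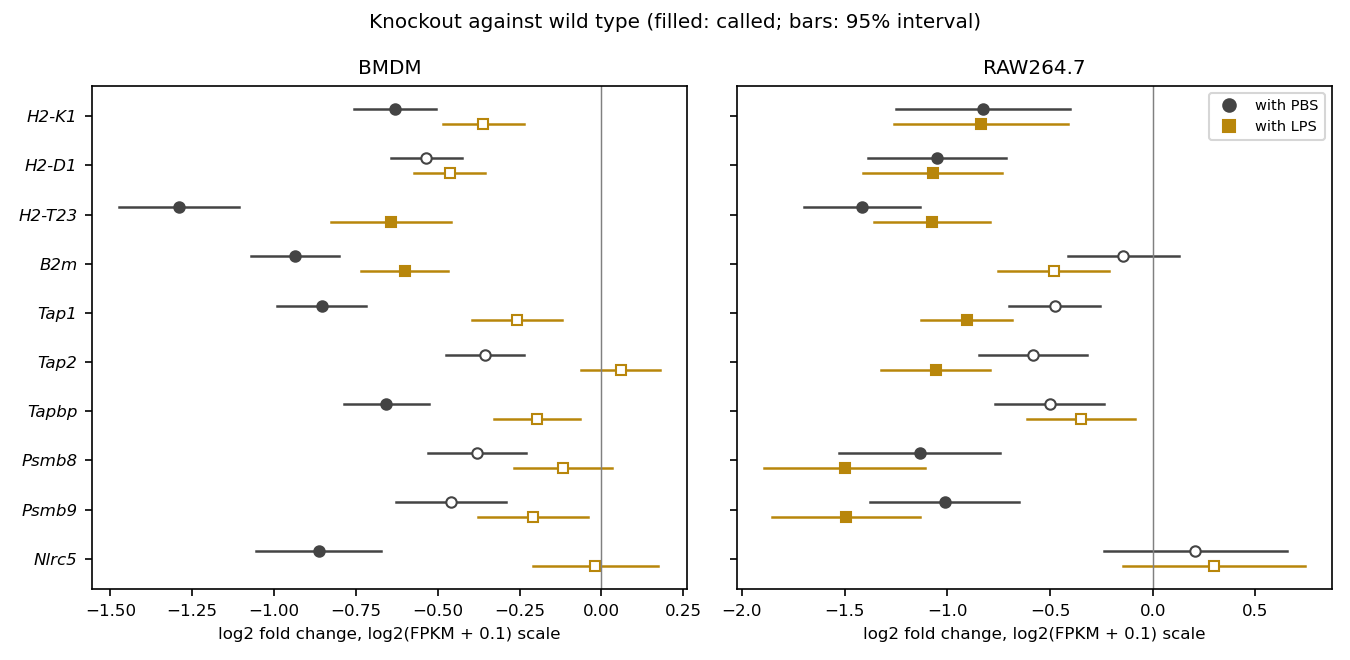
Log2 fold change of knockout against wild type (labelled knockout in RAW264.7) for each gene, with PBS as circles and with LPS as squares; bars are 95% intervals and filled symbols are called. In BMDMs 6 circles and 2 squares are filled, in RAW264.7 cells 5 circles and 7 squares, and every filled symbol is below 0.

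LPS raised most of the pathway in BMDMs. In wild type, 8 of 10 genes were called higher and none lower, against 7.94% of all genes tested called higher and 32.5% lower. In the knockout it was 9 of 10, against 8.02% higher and 30.9% lower. Nlrc5 rose most, from 4.96 to 42.4 FPKM in wild type and from 2.68 to 41.7 in the knockout. These were 8.39-fold and 15.1-fold changes on the log2(FPKM + 0.1) scale (log2 3.07 ± 0.08 and 3.91 ± 0.08, SE, adjusted p = 9.57e-10 and 2.19e-10, limma).

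Tap1 rose by 7.33-fold in wild-type BMDMs and 11.1-fold in knockout BMDMs. It went from 15.75, 16.95 and 15.39 to 123.3, 112.0 and 119.1 FPKM in wild type, and from 9.20, 8.97 and 8.29 to 98.0, 97.1 and 100.9 in the knockout. No PBS library came near an LPS library. Tap2, Psmb9, Tapbp and Psmb8 rose by 3.19-, 3.15-, 2.76- and 2.50-fold in wild type and by 4.26-, 3.75-, 3.79- and 3.00-fold in the knockout. Among the members, H2-D1, B2m and H2-K1 had the smallest changes. H2-T23 rose by 1.91- and 3.00-fold and H2-K1 by 1.55- and 1.86-fold. B2m had 1.33-fold in wild type, under the threshold, and rose by 1.68-fold in the knockout, while H2-D1 had 1.18- and 1.25-fold.

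These changes stand against a downward shift of the other genes. The median log2 fold change of the 10555 genes with a mean of at least 1 FPKM in BMDMs was −0.73 in wild type and −0.62 in the knockout, and it was 0.03 and 0.04 over 10442 genes in edgeR. In edgeR all 10 members were called higher in both genotypes, H2-D1 at 1.02 and 0.99 and B2m at 1.19 and 1.42 on the log2 scale. Of 10899 and 10488 calls in the FPKM scale, 19.6% and 20.6% were higher, and of 7865 and 7526 calls in edgeR, 44.8% and 44.7%. The share of all genes tested that edgeR called higher is not given.

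The levels in knockout BMDMs with LPS were also set against those in resting wild-type cells, and for 2 genes the order depended on the scaling. In FPKM, H2-D1 was at 710.0, 698.3 and 710.0 FPKM in the knockout with LPS, below the 809.7, 841.6 and 814.3 of wild type with PBS. B2m was at 2673, 2666 and 2598 against 2929, 3158 and 2967. The log2 differences were −0.22 for H2-D1 and −0.19 for B2m in the FPKM scale, and 0.41 and 0.44 in edgeR and 0.43 and 0.46 in DESeq2. The other 8 members were higher in the knockout with LPS than in wild type with PBS, without overlap in FPKM, and had positive differences in edgeR and DESeq2. This comparison of levels was not tested, and its other scalings were chosen after seeing the data. The share of all genes that separate in this way is not given, so the count of 8 has no baseline.

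In RAW264.7 cells, LPS raised 4 of the 10 genes. H2-T23, Tap1, Tapbp and Nlrc5 were called higher in both genotypes and no member lower. The shares of all genes tested were 5.8% higher and 12.5% lower in wild type, and 7.45% and 14.6% in the labelled knockout. Tap1 rose by 6.65- and 4.94-fold, Nlrc5 by 4.28- and 4.55-fold, H2-T23 by 3.43- and 4.34-fold and Tapbp by 2.92- and 3.25-fold in wild type and labelled knockout. All 4 had adjusted p of at most 3.07e-05 in either genotype (limma).

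Psmb8 went from 31.4 to 37.6 FPKM with LPS in wild-type RAW264.7 cells and from 14.6 to 13.3 in the labelled knockout. Psmb9 went from 3.80 to 5.16 and from 1.88 to 1.77, and Tap2 from 5.24 to 7.42 and from 3.46 to 3.52. In wild type these 3 genes had no overlap between PBS and LPS, in the labelled knockout all 3 overlapped, and none was called. The overlap came from replicate 1 of the labelled knockout with PBS, at 19.78, 2.52 and 3.93 FPKM for Psmb8, Psmb9 and Tap2. Without it the PBS libraries lay below the LPS ones for all 3 genes. Their log2 fold changes were then 0.13, 0.17 and 0.12, and none was called. The sign for Psmb8 in the labelled knockout turned with the scaling, at −0.10 in the FPKM scale and 0.09 in edgeR, and likewise for Psmb9, at −0.05 and 0.14. The median of the 11336 genes with at least 1 FPKM was −0.21 and −0.23 in these comparisons, and under edgeR 9 members were called higher in wild type and 6 in the labelled knockout, Psmb8 being the exception in wild type. Of 4899 and 5899 calls in the FPKM scale, 31.7% and 33.8% were higher, and of 4252 and 5175 calls in edgeR, 46.9% and 46.5%. The share of all genes tested that edgeR called higher is not given. Without replicate 1 of the labelled knockout with PBS, H2-K1 and H2-D1 were also called, at 0.75 and 0.69 on the log2 scale, 6 members in all.

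**Figure D3:**
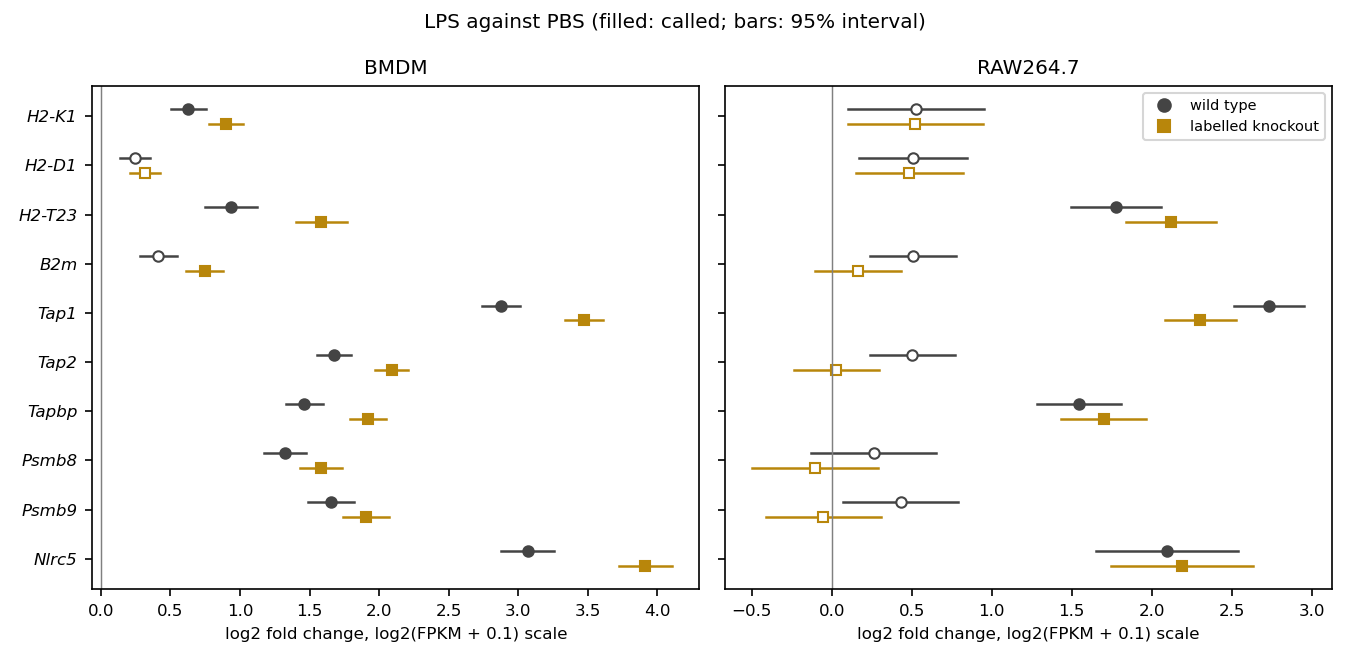
Log2 fold change of LPS against PBS for each gene, with wild type as circles and knockout (labelled knockout in RAW264.7) as squares; bars are 95% intervals and filled symbols are called. Nlrc5 and Tap1 lie farthest to the right in BMDMs, at 3.07 and 2.87 in wild type and 3.91 and 3.47 in the knockout.

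The response to LPS was compared between genotypes by the interaction term. In BMDMs Nlrc5, Tap1 and H2-T23 had a larger rise in the knockout, with differences of 0.84 ± 0.12, 0.60 ± 0.09 and 0.65 ± 0.12 on the log2 scale (SE, adjusted p = 0.00349, 0.00366 and 0.0108, limma). Of all genes tested, 1.91% were called higher and 1.02% lower. Tap2, Tapbp and B2m had differences of 0.41, 0.46 and 0.33 with adjusted p under 0.05 and below the fold threshold. H2-D1 had 0.07 (adjusted p = 0.632, limma), and −0.03 in edgeR. The median of genes with at least 1 FPKM was 0.11 in this term, and with edgeR only Nlrc5 passed the fold threshold, at 0.76 (adjusted p = 1.5e-07), with Tap1 at 0.50 and H2-T23 at 0.55. Leaving out replicate 2 of wild-type BMDMs with PBS also left 1 member called, Nlrc5.

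In RAW264.7 cells no member was called in the interaction by limma, edgeR or DESeq2, against 0.905% of genes called higher and 1.04% lower by limma. Tap1 and Tap2 had differences of −0.43 and −0.47 with unadjusted p of 0.0125 and 0.0181, the 2 members under 0.05, and adjusted p of 0.239 and 0.294 (limma). Without replicate 1 of the labelled knockout with PBS these were −0.41 and −0.38 (adjusted p = 0.167 and 0.224, limma). H2-T23 and Tapbp then had 0.49 and 0.30 (adjusted p = 0.0301 and 0.0389, limma), under the fold threshold. Nlrc5 went from 0.09 to −0.19, and no member was called.

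Ratios of genes within a library do not depend on how libraries are scaled. Psmb8 replaces the standard subunit Psmb5 in the immunoproteasome, and Psmb9 replaces Psmb6. The Psmb8 to Psmb5 ratio of FPKM was 0.394, 0.425 and 0.449 in wild-type BMDMs with PBS and 0.299, 0.311 and 0.297 in the knockout. With LPS it was 1.27, 1.23 and 1.18 against 0.982, 0.981 and 1.03. The knockout libraries were lower in both treatments, and the LPS libraries of either genotype were above all PBS libraries. In RAW264.7 cells it was 0.404, 0.362 and 0.340 against 0.280, 0.306 and 0.286 with PBS, and 0.455, 0.442 and 0.422 against 0.334, 0.264 and 0.317 with LPS. There Psmb5 itself was called lower, at 85.4 against 50.8 FPKM with PBS.

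The Psmb9 to Psmb6 ratio behaved alike, with means of 0.129 in wild type and 0.0944 in the knockout in BMDMs with PBS, and 0.272 and 0.205 with LPS. In RAW264.7 cells the means were 0.0311 and 0.0226 with PBS and 0.0413 and 0.0207 with LPS, and the genotypes did not overlap in any of these 4 settings. Psmb10 replaces Psmb7. The Psmb10 to Psmb7 ratio was 1.09, 1.28 and 1.10 in wild-type BMDMs with PBS and 0.883, 0.870 and 0.944 in the knockout, which were apart, and 3.83, 3.49 and 3.56 against 3.41, 3.11 and 3.51 with LPS, which overlapped. In RAW264.7 cells it was 0.525, 0.556 and 0.556 against 0.575, 0.453 and 0.425 with PBS, with overlap, and 0.650, 0.747 and 0.734 against 0.403, 0.435 and 0.448 with LPS, without. With 3 libraries against 3, an exact permutation test cannot give a two-sided p under 0.1, so none is given for ratios.

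The ratio of B2m to H2-D1 was lower in knockout BMDMs and higher in labelled knockout RAW264.7 cells. It was 3.62, 3.75 and 3.64 in wild-type BMDMs with PBS and 2.80, 2.79 and 2.75 in the knockout. In RAW264.7 cells it was 4.45, 4.49 and 4.39 against 7.79, 8.78 and 8.52. The genotypes did not overlap in either cell type, and with LPS the means were 4.12 against 3.75 and 4.45 against 6.70. The direction in BMDMs was not shared by all 3 heavy chains. B2m to H2-T23 was 43.5, 39.7 and 42.2 in wild-type BMDMs with PBS and 52.4, 52.5 and 55.7 in the knockout, and overlapped with LPS, at means of 29.1 and 29.9. B2m to H2-K1 had means of 10.02 and 8.11 with PBS and 8.63 and 7.31 with LPS, the knockout being lower in both. In RAW264.7 cells B2m to H2-T23 and B2m to H2-K1 were higher in the labelled knockout, without overlap in either treatment, at 72.1 against 177.3 and 57.7 against 93.7 with PBS. Tap1 to Tap2 was 1.19 against 0.837 in BMDMs with PBS and 2.72 against 2.18 with LPS, and in RAW264.7 cells 0.744 against 0.800 with PBS, with overlap, and 3.53 against 3.97 with LPS.

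**Figure D4:**
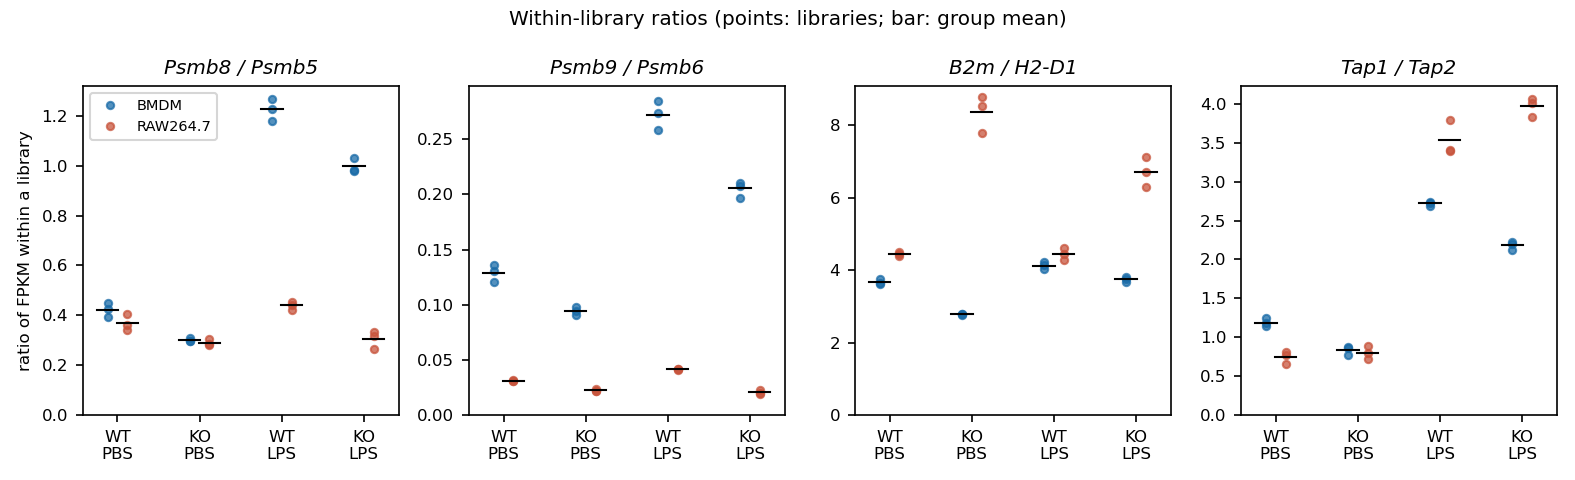
Ratios of FPKM within each library for 4 gene pairs (linear axes from 0), with BMDMs in blue and RAW264.7 cells in red; points are libraries, bars are group means, and KO in RAW264.7 stands for the libraries labelled knockout. B2m to H2-D1 averages 4.45 in wild-type and 8.36 in labelled knockout RAW264.7 cells with PBS, and 3.67 and 2.78 in BMDMs.

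Of 12 other class I heavy chain genes, 11 were tested in each cell type. Counts over this and the lists that follow are by the same rule as for the members and are read against the same shares of all genes tested. Those shares do not cover the counts without replicate 1. In BMDMs 4 fell in the knockout with PBS and none rose, H2-T24, H2-T22 and H2-Q4 among them, with log2 fold changes of −1.95, −0.76 and −0.59. With LPS, H2-Q7 and H2-T24 were lower and H2-M2 higher. In the labelled knockout RAW264.7 cells 4 fell with PBS, 3 without replicate 1, and 6 with LPS, and none rose. H2-M3, which presents formylated peptides, went from 22.8, 21.2 and 22.2 to 8.65, 6.07 and 8.36 FPKM with PBS. LPS raised 7 of these genes in wild-type BMDMs and 8 in the knockout, and 3 and 2 in wild-type and labelled knockout RAW264.7 cells, where H2-M3 fell in wild type. Without replicate 1 of the labelled knockout with PBS the latter count was 3.

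Of 9 further genes of peptide generation and loading, none was called between genotypes in BMDMs. In the labelled knockout RAW264.7 cells 2 fell with PBS, Psme1, a proteasome activator subunit, and Calr, a chaperone of the loading complex. Without replicate 1, 5 were lower and 1 higher. With LPS 3 fell, Psmb10, Psme1 and Pdia3. Psmb10, the catalytic subunit that joins Psmb8 and Psmb9, was at 40, 44.57 and 44.35 FPKM in wild type with LPS against 17.1, 18.8 and 18.4. With PBS it was not called, at 29.3, 30.6 and 28.7 against 29.1, 14.9 and 13.7, where replicate 1 lay within the wild-type range. LPS raised 4 of the 9 in BMDMs of either genotype, with Psme2, Psmb10 and Tapbpl at 1.97, 1.84 and 1.69 on the log2 scale in wild type. In RAW264.7 cells it raised Psme2 in both genotypes and lowered Tapbpl in the labelled knockout, where none was called lower without replicate 1 of the PBS group.

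The 14 standard core proteasome subunits were not called between genotypes in BMDMs. In the labelled knockout RAW264.7 cells 4 of 14 were lower with PBS, Psmb5, Psmb4 and Psma7 among them, against 3.77% of all genes tested, and 6 with LPS, against 7.6%, and none was higher. Psmb5 was at 84.3, 82.3 and 89.5 FPKM in wild type with PBS and at 70.6, 39.8 and 41.9 in the labelled knockout, where replicate 1 lay nearest to wild type. Without that replicate 11 of the 14 were called lower, in a fit for which the share of all genes is not given. LPS raised 3 and lowered Psma1 in wild-type BMDMs, raised 4 in the knockout and raised Psma6 in RAW264.7 cells of both genotypes.

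Of 15 transcription factors that act on class I promoters, none rose in resting knockout BMDMs, and Stat2 and Irf9, which act together in type I interferon signalling, were among those that fell. Stat2 was at 21.0, 23.6 and 20.3 FPKM in wild type and 8.50, 8.86 and 8.81 in the knockout. The log2 fold changes were −1.30 for Stat2 and −0.91 for Irf9 (adjusted p of at most 8.95e-06, limma). With LPS 1 rose and 1 fell, and Irf8 was the lower, at 178.0, 165.2 and 169.4 FPKM against 42.5, 37.5 and 40.4.

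In the labelled knockout RAW264.7 cells 2 of these factors were higher and 2 lower in either treatment. Rfx5, a subunit of the complex that binds the X box, was higher in either treatment, at 0.88 and 1.23 on the log2 scale, and Creb1 at 0.63 and 0.77. With PBS, Rfx5 was at 4.63, 7.67 and 8.01 FPKM against 3.95, 3.39 and 3.31 in wild type, and Creb1 at 6.58, 9.67 and 10.4 against 5.69, 5.47 and 5.65, replicate 1 of the labelled knockout being nearest to wild type for both. Without it 3 factors were higher and 2 lower. Irf9 was lower with PBS, at −0.71, and Irf1 with LPS, at 24.4, 25.6 and 25.6 FPKM against 15.67, 13.5 and 14.97. LPS raised 6 of the 15 and lowered 1 in both RAW264.7 genotypes, and raised 8 and 7 and lowered 4 in wild-type and knockout BMDMs, where 7.94% and 8.02% of all genes tested were higher and 32.5% and 30.9% lower.

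Of 9 interferon and receptor genes, 7 were tested in BMDMs and 5 in RAW264.7 cells. Ifnb1 and Ifna5 were lower in knockout BMDMs with LPS. Ifnb1 was at 6.53, 7.15 and 4.95 FPKM in wild type and 2.34, 2.51 and 2.73 in the knockout, with a log2 fold change of −1.25 ± 0.25 (SE, adjusted p = 0.00652, limma). Ifna5 had 35 counts over the wild-type libraries and 0 over the knockout ones. The values of Ifna5, and those of Ifnb1 and Psmb5 in RAW264.7 cells where no call is given, were picked after they had been seen. In RAW264.7 cells with LPS, Ifnb1 was at 18.8, 18.7 and 18.5 FPKM in wild type and 21.0, 22.4 and 23.5 in the labelled knockout, which was not called. None of the genes tested was called between genotypes in either cell type with PBS. Ifng had 0 counts in all 24 libraries. LPS raised 2 and lowered 1 of the 9 in wild-type BMDMs, raised 3 and lowered 1 in the knockout, and raised 1 and lowered 2 in both RAW264.7 genotypes.

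Markers of other cell types were set beside these results. The summed FPKM of 6 NK cell markers was 4.1 to 4.3 in wild-type and 1.09 to 1.22 in knockout BMDMs with LPS, with Gzma, Eomes and Prf1 at 0 in both groups and Ncr1 at 0 in the knockout, and at most 0.17 in BMDMs with PBS. In RAW264.7 cells it was at most 1.1. That of 5 dendritic cell markers was 1.18 to 1.44 in wild-type and 8.7 to 10.18 in labelled knockout RAW264.7 cells with PBS, and 1.63 to 2.14 and 4.34 to 5.02 with LPS. Siglech made up most of the sum with PBS, at 1.11, 0.97 and 1.28 in wild type and 9.45, 9.72 and 8.45 in the labelled knockout, while Flt3 was at 0 and Itgax, Zbtb46 and Xcr1 averaged at most 0.137. In BMDMs the latter list was at 10.39 to 11.06 and 11.36 to 11.91 with PBS and at 6.03 to 6.31 and 8.17 to 8.97 with LPS. Their part in the levels of the 10 genes was not tested.

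By the deposited tables, 8 of the 10 genes lie on chromosome 17, B2m on chromosome 2 and Nlrc5 on chromosome 8. The labels list mm10, but the starts in the tables differ from GRCm38, so the build of these coordinates is not known. The median log2 fold change of the 587 chromosome 17 genes with at least 1 FPKM in RAW264.7 cells was −0.03 with PBS and −0.11 with LPS, against 0.02 and −0.02 for all such genes. Tap1 and Psmb9 overlap by 212 bases on opposite strands, and Tapbp overlaps Zbtb22 on the same strand by 3422 bases, where Zbtb22 had 223 to 623 counts a library. Whether counting used the strand is not given in the sources used here, so reads in these overlaps are uncertain.

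Over 12 libraries the correlation of log2 levels between members had a median Pearson r of 0.92 in BMDMs, from 0.56 to 1.00 over 45 pairs, and 0.78 in RAW264.7 cells, from −0.10 to 0.99. Nlrc5 had the lowest median r with the other members in RAW264.7 cells, at 0.34, and H2-D1 in BMDMs, at 0.65. These libraries share their treatment and genotype, so r is given as a description. The genes whose profile was most like the mean of the members were Mndal, Irgm1, Phf11b, Ifi208 and H2-T22 in BMDMs, with r of 0.998 to 0.999 over 12 libraries. In RAW264.7 cells they were Degs1, Cd82, Ier3, Snx20 and Slc2a1, with r of 0.992 to 0.997.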

How the data were processed

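RNA-seq of poly(A) RNA was analysed in 24 libraries, 12 of each cell type. The authors deposited raw read counts per gene and FPKM values, scaled by exon length and library total, in a table for each cell type. The labels list mm10, but the starts of all 10 genes in the tables differ from GRCm38, so the build of those coordinates is not known. No aligner or counting program was named by the labels or methods (not given in the sources used here). Groups were taken from the sample titles, since the genotype tag contradicted the title in 12 of 24 samples. The 10 genes and all lists were chosen with earlier results of these data known.

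FPKM values were tested as log2(FPKM + 0.1) with limma 3.58.1 in R 4.3.3, with 4 group means per cell type and no intensity trend, over all genes above 0 in at least 1 library (26740 in RAW264.7, 26973 in BMDMs). Fold changes understate the change of low genes. P-values are two-sided with Benjamini-Hochberg adjustment, and a gene was called at an adjusted p under 0.05 and a fold of at least 1.5, as in the study's methods. On simulated data limma called fewer of the smaller changes than the count tests. As alternatives, the counts went through DESeq2 1.42.0 and the quasi-likelihood test of edgeR 4.0.16, beside other pseudocounts, filters, scalings, a replicate block and leaving out each library. From each other list, up to 3 called genes per comparison were named, those with the largest change, no overlap between groups and a mean of at least 1 FPKM. The values of 1 gene of these lists are not reported here. The 5 genes most like the members had the highest Pearson r with their mean centred profile. Ratios were taken within a library. Promoter sequences are from RefSeq, GRCm38.p6.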

Additional observations from a re-analysis of the deposited data

Results flagged for a closer look

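In BMDMs the response to LPS differed between genotypes for 3 genes by the interaction term, each with a larger rise in the knockout. The differences were 0.648 for H2-T23, 0.597 for Tap1 and 0.845 for Nlrc5 on the log2 scale (adjusted p = 0.0108, 0.00366 and 0.00349, limma). In edgeR they were 0.55, 0.50 and 0.76, so that Nlrc5 alone passed the fold threshold. Without replicate 2 of wild-type BMDMs with PBS, H2-T23 had 0.58 and Tap1 0.56, also under it.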

How the results depend on the processing

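No gene changed direction while called under any alternative, and of 1900 values for the 10 genes 1799 kept their side of the threshold, 25 lost the call and 76 gained it. LPS against PBS in wild-type RAW264.7 cells gave 9 called genes with median-ratio scaling, edgeR with or without a filter, and DESeq2, and 7 by adjusted p alone, against 4. By adjusted p alone, knockout against wild type gave 8 in RAW264.7 cells with PBS, 10 in BMDMs with PBS and 6 in BMDMs with LPS, and the BMDM interaction gave 6. Shares of all genes by adjusted p alone are not given. The RAW264.7 comparison with PBS gave 1 when fitted on its 2 groups alone. The BMDM interaction gave 1 with median-ratio scaling, edgeR with or without a filter, and DESeq2. Leaving out each library gave 1 to 3 genes in the BMDM interaction, the lowest without wild-type PBS replicate 2, and 0 to 2 in knockout against wild type with LPS, the lowest without wild-type LPS replicate 1. In RAW264.7 cells with PBS it gave 4 to 7. The cause of these differences was not tested.

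Scaling moved the shares of all called genes. With TPM scaling, the median of genes with at least 1 FPKM in RAW264.7 knockout against wild type was 0.20 with PBS and 0.21 with LPS, and higher calls went from 56% to 72.5% and from 56.1% to 75.8% of all calls. With median-ratio scaling they went from 67.9% to 43.4% in BMDM knockout against wild type with LPS, where the FPKM median was 0.14, and from 65.1% to 46.8% in the interaction.

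With the replicate number as a block, the counts of called genes were 5, 7, 4, 4 and 0 in RAW264.7 cells and 6, 2, 8, 9 and 3 in BMDMs, as without it. Same-numbered libraries had correlations of −0.0395 to 0.0844 and −0.0579 to 0.0711 in their deviations. The medians were 0.00856 and 0.0287, against −0.0108 and −0.0145 for libraries of different numbers. Of 12 libraries, 8 and 7 correlated best with their own number. These values do not settle whether the numbers pair the libraries. Depth limits the low genes, Psmb9 in RAW264.7 cells having as few as 72 counts.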
